A study of Mus musculus with 2 samples.

Results

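Il22, Il17a and Il17f are the 3 cytokine genes described here, followed cell by cell in innate lymphoid cells (ILCs) of the mouse gut. They were chosen by name, as 3 of the 31053 genes in the deposited matrices, and not by a rule on their values. Earlier results of these data were known when they were chosen. The cells were sorted from C57BL/6 mice aged 8 weeks as IL7ra+ ILCs, one pool from small intestine (label Fed SI) and one from colon (label Fed Colon). Each tissue gave 1 library of the 10x Chromium 3′ v2 kit, loaded with the cells of 8 pooled mice. With 1 library per tissue the spread between mice is unknown and no test between tissues was possible. The 95% intervals below therefore cover counting error only, and they are too narrow where a few cells hold most of a gene's molecules. The labels state no genotype other than the strain and no treatment beyond the word Fed.

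IL-22, IL-17A and IL-17F are the signature cytokines of type 3 immunity. IL-22 belongs to the IL-10 family and acts on epithelial cells, where it drives antimicrobial proteins and repair; IL-17A and IL-17F form homodimers or a joint heterodimer, signal through IL-17RA and IL-17RC, and recruit neutrophils. In the gut wall they are made by group 3 ILCs and by T cells, among them γδ T cells. Markers used here to split the cells were Ccr6, a chemokine receptor of the lymphoid tissue inducer-like branch, Ncr1, the receptor NKp46 of the natural cytotoxicity receptor branch, Trdc, the constant segment of the T cell receptor δ chain, and Gata3, the lead transcription factor of ILC2.

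Il17a and Il17f are neighbours on mouse chromosome 1 (build mm10). Il17a (ENSMUSG00000025929) lies at chr1:20730905-20734496 on the plus strand with 3 exons. Il17f (ENSMUSG00000041872) lies at chr1:20777146-20790617 on the minus strand, 42.6 kb away, and its main transcript also has 3 exons. Il22 (ENSMUSG00000074695) lies at chr10:118204942-118210047 on the plus strand with 5 exons. The 150 bases before the start of Il17a and before the start of the main Il17f transcript, Il17f-201 (chr1:20777146-20784270, which begins inside the gene's outer bounds), are shown because the 2 genes lie side by side while their balance differed between marker gates below; the windows hold no annotated exon. Capitals mark the match to TATAAA (searched on both strands), the core promoter element bound by TBP.
Il17a, chr1:20730755-20730904, plus strand: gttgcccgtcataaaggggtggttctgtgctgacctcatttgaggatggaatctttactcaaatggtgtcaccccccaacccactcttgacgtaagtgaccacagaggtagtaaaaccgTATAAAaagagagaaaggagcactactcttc
Il17f, chr1:20784271-20784420, minus strand: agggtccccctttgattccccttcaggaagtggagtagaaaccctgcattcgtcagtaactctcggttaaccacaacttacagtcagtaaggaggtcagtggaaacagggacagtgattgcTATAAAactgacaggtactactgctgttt
Each window held 1 TATAAA, on the gene's own strand, beginning 31 bases before the start in Il17a and 29 in Il17f. Of 32817 RefSeq promoter windows of the same length (GRCm38.p6), 7.58% held TATAAA. No match was found in either window for GCGTG (AHR core, 20.5% of promoters), TGANTCA (AP-1, 4.24%) or TTCNNNGAA (STAT, 4.09%), and no motif overlapped another.

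Il22 has a near-identical copy in the reference annotation, Iltifb (ENSMUSG00000090461, chr10:118289629-118295038, minus strand), which lies 79.6 kb away. The copy's transcript was identical to that of Il22 at 97.3% of aligned positions, and at 96.2% over the last 500 bases, where a 3′ kit reads. The similarity runs past the transcript, as the 30 bases before the 2 annotated starts show, with the single differing base in capitals (A28G, Il22 base first, counted from the 5′ end of the line).
Il22, chr10:118204912-118204941, plus strand: cctgatgtttttgccttttgctctctcAct
Iltifb, chr10:118295039-118295068, minus strand: cctgatgtttttgccttttgctctctcGct
Iltifb had 158 UMIs in small intestine and 61 in colon, against 61690 and 41248 for Il22. How reads that match both genes were counted is not given in the sources used here, so the Il22 counts are uncertain by what was dropped or shared, and the part of this in the results was not tested. Of the runs of 50 bases in the Il22 transcript, 41.0% were also found in that of Iltifb, and 31.3% over the last 500 bases. The transcripts of Il17a and Il17f shared no run of 50 bases.

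The deposited cell table held 5490 cells of the small intestine and 7549 of the colon, with a median of 2579 and 2600 UMIs (unique molecular identifiers, 1 per captured RNA molecule) per cell. The libraries held 19745585 and 25548284 UMIs in all, of which 15080081 and 22332691 lay in these cells. The cells fitted their label in part: Il7r was found in 83.7% and 67.5% of them and Id2 in 82.4% and 83.5%. T cell receptor genes were present too, with Trdc in 477 and 1507 cells and Cd3e, a chain of the T cell receptor complex, in 7.81% and 18.3% of cells. Igkc, an antibody gene of plasma cells, was found in 33.7% and 13.8% of cells, and free RNA in the droplets was estimated at 5.36% and 8.25% of a cell's UMIs. The libraries shared 60 barcodes, against 56.2 expected for independent draws.

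Il22 was by far the most abundant of the 3. Its level was 4091 CPM (UMIs of the gene per 1000000 UMIs of the cells) in small intestine (95% interval 4059 to 4123) and 1847 in colon (1829 to 1865), a ratio of 2.21 (2.19 to 2.24). Il17f stood at 61.7 CPM in small intestine (57.8 to 65.8) and 26.9 in colon (24.8 to 29.2), a ratio of 2.29 (2.07 to 2.55). Il17a differed least between the tissues, with 18.4 CPM in small intestine (16.3 to 20.7) and 14.4 in colon (12.9 to 16.1), a ratio of 1.28 (1.09 to 1.51). A UMI counts a molecule once whatever its length, but reads shared with Iltifb leave the Il22 level uncertain, so comparisons between the genes are rough. The order Il22, Il17f, Il17a was the same in both libraries. Thus 2 of the 3 genes passed 2-fold with the small intestine on top. So did 8.92% of 11962 genes with at least 20 UMIs over both libraries together. None of the 3 passed 2-fold the other way, as 5.42% of genes did. Scaled without mitochondrial and ribosomal UMIs, Il22 stood at a log2 ratio of 0.99 and no longer passed.

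The 3 genes were spread over cells in different ways. Il22 was found in 76.1% of small intestinal cells and 38.0% of colon cells, and in 57.2% and 23.3% after every cell was thinned to 1000 UMIs. Its counts ran up to 277 UMIs in 1 cell of the small intestine and 291 in the colon, and at the extreme the gene made up 12.4% and 13.8% of all UMIs of a cell. As few as 411 cells of the small intestine and 197 of the colon held 50% of all Il22 UMIs, or 9.84% and 6.86% of the Il22-positive cells. The variance over the mean of the counts, which is 1 for counts scattered at random, was 44.8 in small intestine and 71.4 in colon, and 16.3 and 22.2 in the thinned cells. A cell of the colon was thus less often Il22-positive, while its highest cells matched those of the small intestine: 1.31% of small intestinal cells and 1.05% of colon cells held at least 100 UMIs.

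Il17a and Il17f were rare. Il17a was found in 87 cells of the small intestine (1.58%, 1.27 to 1.95) and 110 of the colon (1.46%, 1.20 to 1.75), with 278 and 322 UMIs. In each library 10 cells held 50% of the Il17a UMIs, and the single highest cell, with 35 UMIs in small intestine and 47 in colon, held 12.6% and 14.6% of them. Il17f was found in 353 cells of the small intestine (6.43%, 5.80 to 7.11) and 242 of the colon (3.21%, 2.82 to 3.63), with 931 and 601 UMIs. Its UMIs were less concentrated, 55 and 41 cells holding 50% of them and the highest cell 3.11% and 3.83%. More than 50% of the positive cells of either gene had just 1 UMI: 55.2% and 61.8% for Il17a and 54.4% and 55.4% for Il17f.

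**Figure D1:**
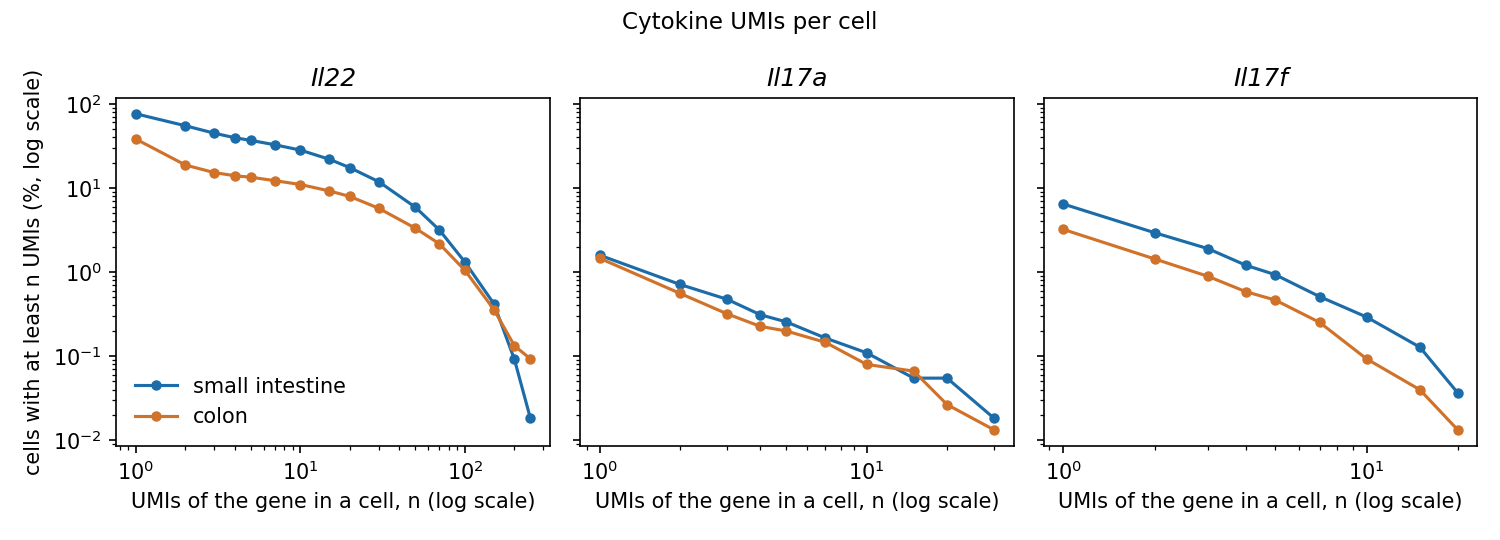
The share of cells (%, log scale) with at least n UMIs of Il22, Il17a or Il17f is plotted against n (log scale) for the small intestine (blue) and the colon (orange). The Il22 curves lie apart at 1 UMI, 76.1% and 38.0%, and meet near 100 UMIs, while Il17a and Il17f start at or below 6.43%.

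A single Il22 UMI was also common in cells of another type. ILC2-marked cells, which had Gata3 and Il1rl1, Klrg1 or Il17rb but no UMI of Ccr6, Ncr1 or Trdc, served as cells that should lack the gene. Il22 was found in 59.9% of 684 such cells of the small intestine and 28.7% of 2911 of the colon, at median depths of 3158.5 and 2787 UMIs. Its level there was 442 CPM in small intestine and 420.4 in colon, beside 311 and 202 expected from free RNA. At 5 UMIs or more the shares parted: 3.51% of ILC2-marked cells in small intestine and 2.44% in colon, against 36.7% and 13.4% of all cells. For Il17a the same cells had 4.82 CPM in small intestine and 4.25 in colon, and for Il17f 7.45 and 8.84, with 3.24 and 1.39 CPM of Il17f expected from free RNA, and 1.47 CPM of Il17a in the small intestine.

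Cells with Ccr6 carried more Il22 and Il17f, and more Il17a where they also had Cd3e. There were 541 Ccr6-positive cells in small intestine and 357 in colon. Il17f stood at 185 CPM in Ccr6-positive against 49.2 in Ccr6-negative cells of the small intestine, 3.77-fold (3.25 to 4.36), and at 121 against 19.5 in the colon, 6.23-fold (5.23 to 7.40). Il22 reached 7430 CPM in Ccr6-positive and 3751 in Ccr6-negative cells of the small intestine, 1.98-fold (1.94 to 2.02), and 6851 and 1452 in those of the colon, 4.72-fold (4.62 to 4.82). Il17a was 1.51-fold (1.04 to 2.14) and 2.90-fold (2.15 to 3.86) higher, and its 36.7 CPM in the Ccr6-positive colon cells became 21.5 CPM without the 1 cell that held 25 of the 60 UMIs. In the colon the 48 Ccr6-positive cells with Cd3e held 56 of these 60 UMIs (171 CPM), and the 309 without Cd3e held 4 (3.06 CPM), beside 2.98 CPM in all colon cells without Cd3e. The 10 Ccr6-positive cells with Cd3e in the small intestine held 13 of the 37 Il17a UMIs. Il17f alone of the 3 was at least 2-fold higher in both libraries, where 2.78% of 10603 genes were; none was 2-fold lower (2.34% of genes).

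The tissues came close to each other among Ccr6-positive cells. Il22 was 1.08-fold (1.06 to 1.11) higher in the small intestine than in the colon there, and in cells positive for Ccr6 and none of the other 3 markers it was lower in the small intestine, with 8125 CPM against 10275 in the colon, a ratio of 0.79 (0.76 to 0.82). Among such Ccr6-only cells, 56.3% of 378 in the small intestine and 72.1% of 183 in the colon held at least 5 Il22 UMIs. In every other single-marker gate the small intestine was higher, 1.43-fold in Ncr1-only, 1.97-fold in Trdc-only and 2.95-fold in Gata3-only cells. Cells with none of the 4 markers, which may express one below detection, held the largest share of Il22 UMIs in either tissue, 41.3% in small intestine and 34.3% in colon, and stood at 5418 and 3381 CPM.

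Ncr1-positive cells had Il22 but little Il17. Il22 stood at 3939 CPM in the 1605 Ncr1-positive and 4160 in the Ncr1-negative cells of the small intestine, a ratio of 0.95 (0.93 to 0.96), and at 2835 and 1737 in the colon, where 665 cells were positive, a ratio of 1.63 (1.59 to 1.68). Il17a was 0.20-fold (0.12 to 0.30) in the small intestine and 0.08-fold (0.02 to 0.25) in the colon, where Ncr1-positive cells had 3 Il17a UMIs in all. In the small intestine 1 cell held 13 of the 23 Il17a UMIs of Ncr1-positive cells, whose level was 4.85 CPM with it and 2.11 without it. Il17f was 0.26-fold (0.21 to 0.32) and 0.59-fold (0.41 to 0.82). Il17a was the 1 gene of the 3 at least 2-fold lower with Ncr1 in both libraries, where 1.91% of genes were; none was 2-fold higher (0.83% of genes). In the small intestine the 406 cells with Tbx21, the transcription factor T-bet, had 0 Il17a UMIs against 20.04 CPM in the cells without it, at least 8.07-fold lower at the floor of 3 counts over the group; 0 of 406 cells allows a share of up to 0.739% of cells with an Il17a UMI, which does not limit expression below detection. In the colon the 293 cells with Tbx21 had 6 Il17a UMIs, 0.41-fold (0.15 to 0.91).

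Trdc-positive cells showed the opposite balance. Il17a stood at 51.1 CPM in the 477 Trdc-positive and 15.4 in the Trdc-negative cells of the small intestine, 3.33-fold (2.48 to 4.40), and at 49.4 and 5.31 in the colon, where 1507 cells were positive, 9.30-fold (7.29 to 12.0). Il22 was 0.39-fold and 0.60-fold and Il17f 0.36-fold and 0.71-fold in Trdc-positive cells of the small intestine and the colon. Il17a was the 1 gene of the 3 at least 2-fold higher with Trdc in both libraries, where 1.19% of genes were; none was 2-fold lower in both (1.69% of genes). In the small intestine 1 cell held 20 of the 66 Il17a UMIs of Trdc-positive cells, and without it their level was 35.7 CPM. Cd3e was found in 309 of the 477 Trdc-positive cells of the small intestine and 1092 of the 1507 of the colon.

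Gata3-positive cells were low in all 3 genes, though not without them. Il22 was 0.50-fold (0.49 to 0.51) in the small intestine and 0.34-fold (0.33 to 0.35) in the colon, Il17f 0.41-fold and 0.44-fold, and Il17a 0.51-fold and 0.22-fold. Il22 and Il17f were at least 2-fold lower in both libraries, where 1.52% of genes were; none was 2-fold higher (1.33% of genes). The Il22 value of the small intestine lay at the threshold, with a log2 ratio of -1.003, and missed it with equal weight per cell (-0.88), without mitochondrial and ribosomal UMIs (-0.88) and without top-scoring doublets (-0.98).

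**Figure D2:**
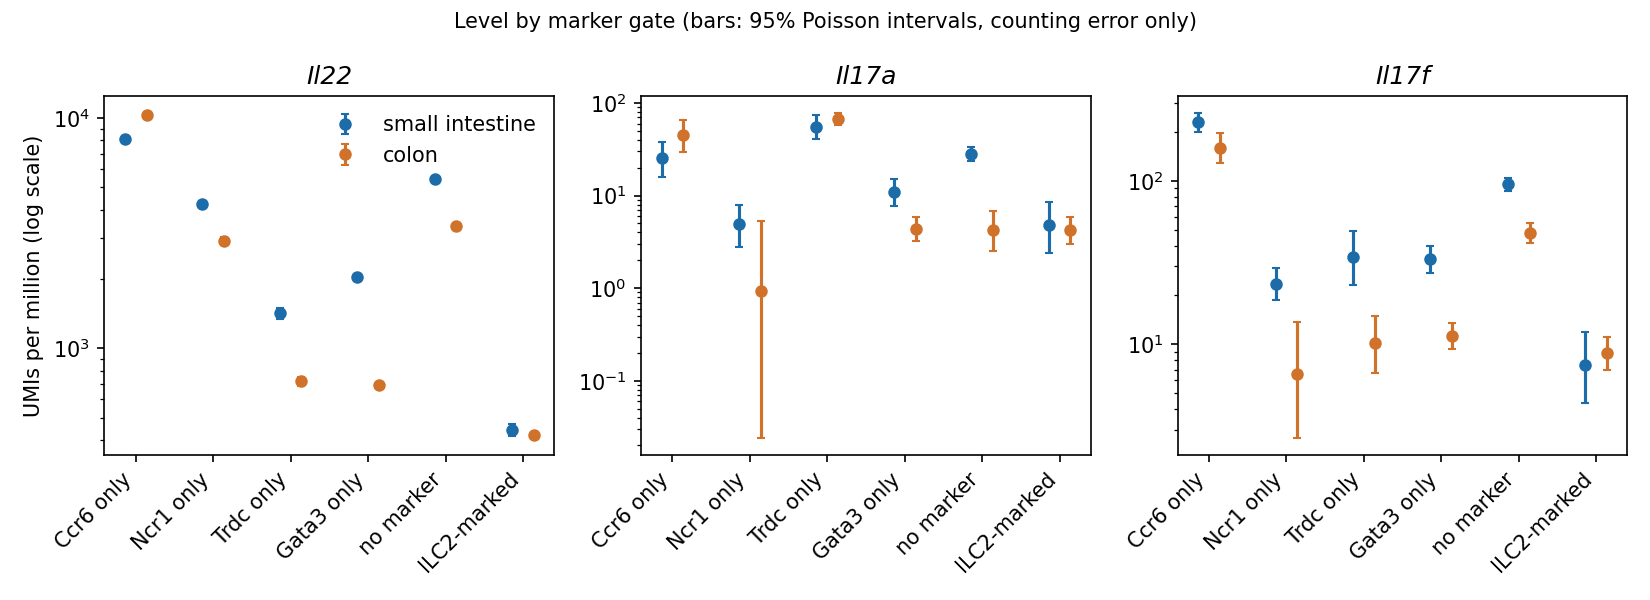
The level of each gene in CPM (log scale) is plotted for cells positive for only 1 marker, for none, and for ILC2-marked cells, with the small intestine (blue) left of the colon (orange) and 95% Poisson intervals as bars. Il22 and Il17f peak in Ccr6-only cells, at 8125 and 10275 and at 228 and 160 CPM, while Il17a is at 55.5 and 67.6 in Trdc-only cells, and at 32.0 and 49.3 there without its highest cell in each library.

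The balance of the IL-17 pair changed with the marker. Il17a gave 23.0% of the joint Il17a and Il17f UMIs in small intestine (20.6 to 25.5) and 34.9% in colon (31.8 to 38.1). In Trdc-only cells the Il17a share was 61.8% (49.98 to 72.8) in the small intestine and 86.9% (81.4 to 91.3) in the colon. Without the highest Il17a cell of each library the Trdc-only shares were 50.9% (36.8 to 64.9) and 83.4% (76.5 to 88.99), so in the small intestine Il17a no longer clearly outweighed Il17f. In Ccr6-only cells the Il17a share was 9.96% (6.42 to 14.6) in the small intestine and 22.0% (14.99 to 30.3) in the colon, where 1 cell with 25 of the 27 Il17a UMIs set the value: Il17a was at 44.9 CPM there and at 3.37 without that cell. Cells with none of the markers gave 22.9% in small intestine and 8.22% in colon.

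**Figure D3:**
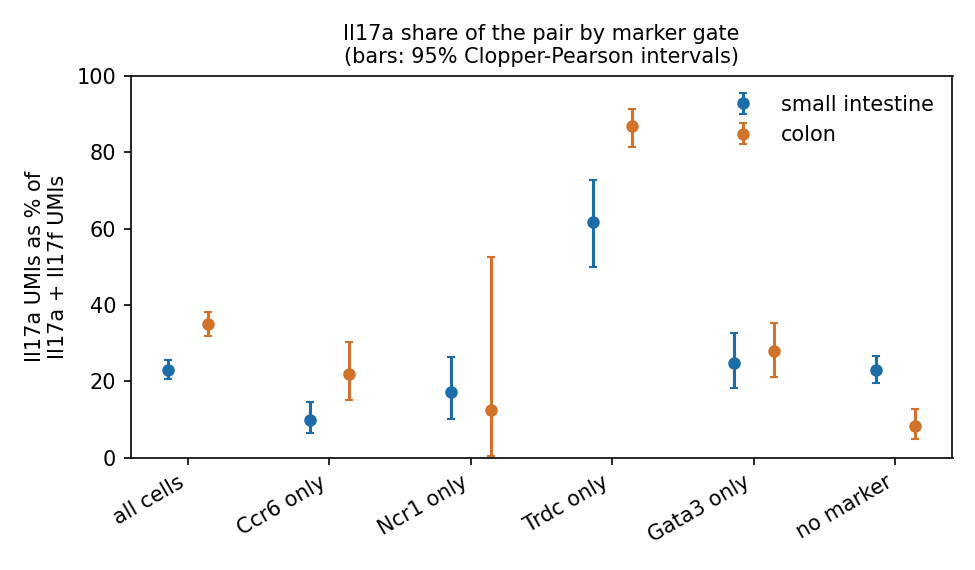
Il17a UMIs are plotted as a percentage of Il17a plus Il17f UMIs for all cells and by marker gate, small intestine (blue) left of colon (orange), with 95% Clopper-Pearson intervals. Trdc-only cells stand at 61.8% and 86.9%, above Ccr6-only cells at 9.96% and 22.0%; the Ncr1-only value of the colon rests on 8 UMIs.

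The Il17a-positive cells of the 2 tissues differed in Cd3e. Of the Il17a-positive cells, 15 of 87 in the small intestine (17.2%) and 76 of 110 in the colon (69.1%) had Cd3e. Cells with Cd3e held 23.7% of the Il17a UMIs in small intestine and 83.2% in colon. The level in Cd3e-positive cells was 56.7 CPM in small intestine (43.8 to 72.1) and 63.5 in colon (56.2 to 71.6), a ratio of 0.89 (0.67 to 1.17). In cells with no Cd3e UMI it was 15.2 in small intestine (13.3 to 17.4) and 2.98 in colon (2.24 to 3.89), a ratio of 5.11 (3.77 to 7.02). In these cells the ratios of Il22 and Il17f were 2.16 (2.13 to 2.19) and 2.29 (2.05 to 2.56). The Il17a level of the colon cells without Cd3e rested on 54 UMIs. It lay above the level expected from free RNA but below the 4.25 CPM of ILC2-marked colon cells. The size of the Il17a ratio is therefore uncertain, and whether Il17a parted the tissues more than Il22 or Il17f was not tested. Among the small intestinal cells without Cd3e, the 168 with Trdc held only 5 Il17a UMIs, in 2 cells. Their log2 ratio over Trdc-negative cells was -0.57 (-2.21 to 0.68), too wide an interval to tell whether Trdc still marked Il17a there. In the colon the 415 Trdc-positive cells without Cd3e held 12 Il17a UMIs (9.06 CPM), against 2.98 CPM in all colon cells without Cd3e.

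**Figure D4:**
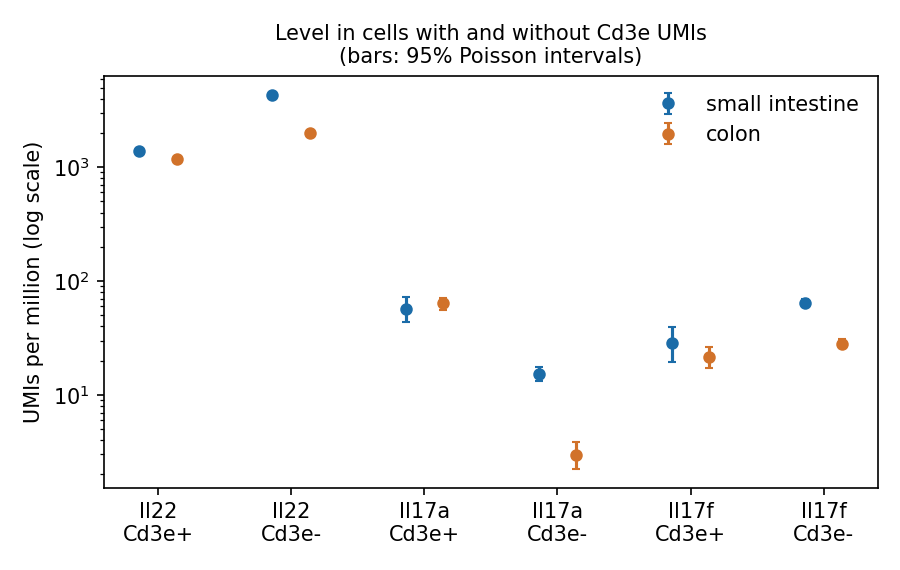
The level of each gene in CPM (log scale) is plotted for cells with and without a Cd3e UMI, small intestine (blue) left of colon (orange), with 95% Poisson intervals. The tissues overlap for Il17a in Cd3e-positive cells (56.7 and 63.5) and lie apart in Cd3e-negative cells (15.2 and 2.98).

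The Il17a-positive colon cells carried other marks of γδ T cells. Trdc was found in 65.5% of them and Cd163l1, a scavenger receptor of IL-17-producing γδ T cells, in 60.0%, against 17.2% and 10.3% of the Il17a-positive cells of the small intestine. Of the 15 colon cells with at least 5 Il17a UMIs, 14 had Cd3e, against 4 of the 14 such cells of the small intestine. Within the Trdc-only cells of the colon, Il17a was 5.73-fold (4.20 to 7.81) higher with Il1r1, the IL-1 receptor, and 4.34-fold (2.55 to 7.94) higher with Cd163l1. The highest cell, with 47 of the 173 UMIs, had both, and without it these values were 2.62-fold (1.75 to 3.86) and 3.05-fold (1.77 to 5.64). Both were also measured in the small intestine, at 1.58-fold (0.67 to 3.32) with Il1r1 and 4.09-fold (2.04 to 8.91) with Cd163l1, and without the highest cell 3.32-fold (1.32 to 7.79) and 1.83-fold (0.80 to 4.36). In the Trdc-only cells of the colon Il22 was 9.33-fold (8.51 to 10.2) higher with Cd74, the class II invariant chain, but 0.53-fold (0.48 to 0.58) with Cd163l1. In those of the small intestine Il22 was 3.28-fold (2.79 to 3.83) with Cd74 and 0.90-fold (0.80 to 1.02) with Cd163l1, an interval that includes 1. Over all colon cells Cd74 parted Il22 and Il17f as well, 10.3-fold (10.1 to 10.5) and 7.25-fold (6.08 to 8.67), whereas in the small intestine it was 1.39-fold (1.37 to 1.42) and 2.44-fold (2.13 to 2.81).

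The 2 IL-17 genes were found in the same cell more often than their separate shares would give. In the small intestine 28 cells had both, against 5.59 from the product of the shares, 5.01 times as many (3.33 to 7.23). In the colon 9 cells had both, against 3.53, 2.55 times as many (1.17 to 4.84). Of these 9 cells, 8 also had Il22, and their median depth was 6239.5 UMIs against 2600 for all colon cells. Doublets were kept, so the colon value rests on few and deep cells. Most positive cells still had 1 of the 2: 32.2% of Il17a-positive cells had Il17f in small intestine and 8.18% in colon. The same count was made within gates. In Ccr6-only cells of the small intestine 8 had both against 2.75, and in those with no marker 12 against 3.50. In Trdc-only cells 4 of the small intestine had both, against 0.261, and 1 of the colon, against 0.701.

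Il17f went with Il22. Of the Il17f-positive cells, 88.4% in small intestine and 87.6% in colon had Il22, which was 1.16 times (1.04 to 1.29) and 2.30 times (2.01 to 2.63) the product of the shares. In the thinned cells these values were 1.38 (1.19 to 1.60) and 3.37 (2.71 to 4.15). For Il17a, at 1 UMI, the intervals included the product in both tissues. Il22 was found in 78.2% of Il17a-positive cells of the small intestine and 47.3% of those of the colon. These shares were 1.03 times (0.80 to 1.30) and 1.24 times (0.93 to 1.63) the product. Of the cells with at least 5 Il17a UMIs, 11 of 14 in the small intestine (78.6%) and 11 of 15 in the colon (73.3%) had Il22. Over all cells Il22 was found in 76.1% and 38.0%. All 3 genes were found in 24 cells of the small intestine and 8 of the colon. The 8 colon cells had a median depth of 6239.5 UMIs, against 2600 for all colon cells, and 5 of them had Ccr6 and 5 had Cd3e; doublets were not removed and their part in these 8 was not tested. Across cells, Pearson's r of log-scaled levels, a description only since cells share library and depth, was 0.15 and 0.29 for Il17f with Il22, 0.15 and 0.03 for Il17a with Il17f, and 0.03 and 0.00 for Il17a with Il22, in the small intestine and the colon.

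The genes whose pattern over cells was most like each cytokine differed between the 3. Over 7178 genes found in at least 2% of the cells of each library, those with the highest r to Il22 in the weaker library were Gem, a small GTPase (0.35 in small intestine and 0.40 in colon), Pxdc1, Hk2, the glycolytic enzyme hexokinase 2, Sdc4, the proteoglycan syndecan 4, and Ccdc184 (0.33 in both). For Il17f they were Odc1, the ornithine decarboxylase of polyamine synthesis (0.17 in both), Pxdc1, Igfbp7, Sdc4 and Dgat1, so that Pxdc1 and Sdc4 were named for both genes. For Il17a they were Blk, a Src-family kinase (0.08 and 0.13), S100a6, Cd247, the CD3 ζ chain, Trdc (0.06 and 0.16) and Cd3e (0.06 and 0.15). All values for Il17a were weak, at 0.16 or below.

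Within the Ncr1-only cells, those with Il22 were lower in Ccl5, Xcl1 and Ifng and higher in Cxcl2 and Cd83. The small intestine had 905 Il22-positive and 244 Il22-negative such cells (median depths 2800 and 2499 UMIs), and the colon 184 and 216 (2673 and 2317). Positive meant at least 1 Il22 UMI, where free RNA was expected to give 0.80 and 0.53 Il22 UMIs per cell. Only 445 of the positive cells of the small intestine and 83 of the colon held at least 5. The part of free RNA in the differences below was not tested. Ccl5, a chemokine of cytotoxic cells, stood at 165 CPM in Il22-positive and 949 in Il22-negative cells of the small intestine, 0.17-fold (0.15 to 0.20), and at 1024 and 2264 in the colon, 0.45-fold (0.41 to 0.50). Xcl1, the lymphotactin gene, was 0.45-fold and 0.35-fold, Ifng 0.48-fold and 0.43-fold, and the NKG2 receptor genes Klrc1 and Klrc2 between 0.42-fold and 0.50-fold. On the other side Cxcl2, a neutrophil chemokine, was 3.17-fold (2.67 to 3.798) and 2.21-fold (1.80 to 2.72) higher, Cd83 2.04-fold (1.69 to 2.47) and 4.62-fold (3.61 to 5.96), and Ccr7, a lymph node homing receptor, 7.36-fold (1.23 to 299.8) and 5.48-fold (3.34 to 9.45). Gzmb, granzyme B, differed between the tissues: the level of Il22 was 1.46-fold (1.40 to 1.52) in Gzmb-positive over Gzmb-negative Ncr1-only cells of the small intestine and 0.25-fold (0.21 to 0.29) in those of the colon. Of 5129 genes, 0.253% were at least 2-fold higher and 0.331% at least 2-fold lower in both libraries.

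Of the gene lists, the other ILC cytokines held 4 of the 5 genes past 2-fold in that comparison. Of 14 other ILC cytokines measured, 1 was higher (Cxcl2) and 3 were lower (Ifng, Xcl1 and Ccl5), with a median log2 ratio of -0.09 in small intestine and -0.20 in colon, beside -0.01 and -0.03 for all genes. Of 18 type 3 receptors and signalling genes, 1 was lower (Il21r, 0.35-fold and 0.45-fold); Il23r, a receptor for the IL-22-inducing cytokine IL-23, was 1.69-fold (1.14 to 2.61) and 7.05-fold (2.48 to 27.6). None of 19 type 3 transcription factors passed 2-fold in both libraries; Tbx21 was 0.56-fold (0.41 to 0.78) and 0.36-fold (0.21 to 0.59). None of the 7 mRNA decay regulators and 3 receptors of the cytokines passed either.

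**Figure D5:**
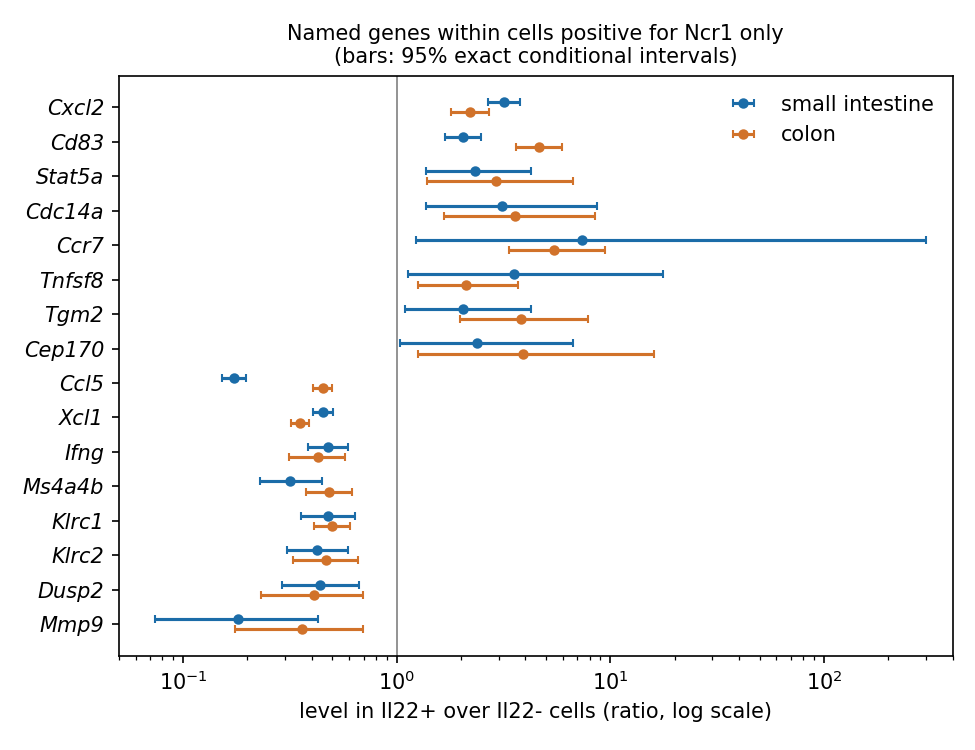
The ratio of levels in Il22-positive over Il22-negative cells (log scale) is plotted for the 8 genes highest and the 8 lowest among Ncr1-only cells, small intestine (blue) above colon (orange), with 95% exact conditional intervals. Cxcl2 and Cd83 lie right of 1, and Ccl5, Xcl1 and Ifng left of 1, in both tissues.

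Trdc-only cells with Il17a or Il17f had less Ccl5, Klrd1 and Xcl1 than those with neither. Only the colon had enough cells for this comparison (67 with and 953 without; the small intestine had 15 with). Ccl5 had 2 UMIs in the cells with an IL-17 gene, 10.6 CPM, against 1076 in those without, 0.0098-fold (0.0012 to 0.035). Klrd1, the CD94 chain of NK receptors, had 0 UMIs against 84.0 CPM, 5.30-fold lower if 3 counts stood in place of the 0. Xcl1 was 0.10-fold (0.02 to 0.29). In the small intestine, Ccl5 was at 129 and 1814 CPM in the 15 cells with and the 322 without. Traf4, a TRAF-family adaptor, was 2.85-fold (1.95 to 4.07) and Palld, an actin-binding protein, 7.74-fold (3.56 to 16.2) higher in the colon. Of 7411 genes, 4.41% were at least 2-fold higher and 8.91% at least 2-fold lower.

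Among the lists, 4 of 15 other ILC cytokines were lower in these colon cells (Ifng, Xcl1, Ccl4 and Ccl5) and none higher, with a median log2 ratio of -0.04 beside 0.01 for all genes. Of 22 type 3 transcription factors 1 was higher, Irf4 at 2.12-fold (0.97 to 4.18, an interval that includes 1), and 1 lower, Ahr, the aryl hydrocarbon receptor, at 0.32-fold (0.09 to 0.85) on 4 UMIs, counts near or below the shares of all genes. Of 21 receptors and signalling genes 1 was lower, Traf6, on 1 UMI, and of 9 mRNA decay regulators and 4 receptors of the cytokines none passed 2-fold. Il23r was 1.65-fold (0.87 to 2.90), with an interval that includes 1.

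Ccr6-only cells were split by the IL-17 genes and, separately, by Il22. The groups without Il22 were much smaller than those without the IL-17 genes, so the shares of genes past 2-fold cannot be compared between the 2 splits. Cells with Il17a or Il17f (73 of the small intestine and 44 of the colon) set against those with neither (305 and 139) gave 2 genes at least 2-fold higher in both libraries, Platr3 and Tuba1c, or 0.0539% of 3711, and 0.566% lower. No member of the pathway lists was among them: 0 of 13 receptors and signalling genes, 18 transcription factors, 7 other cytokines, 7 mRNA decay regulators and 1 receptor. For cells with Il22 (327 and 163) against those without (51 and 20), the shares were 1.32% higher and 0.512% lower. Here too 1 Il22 UMI made a cell positive, and 213 and 132 of the positive cells held at least 5. The higher genes included Arg1, arginase 1, at 2.28-fold and 4.49-fold, and Egln3, an oxygen-sensing prolyl hydroxylase, at 2.57-fold and 2.69-fold, each on 1 to 14 UMIs in the cells without. Il18rap was the 1 list gene past 2-fold there, on 1 UMI in the cells without in each library.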

How the data were processed

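Single-cell libraries (10x 3′ v2) were made by the authors from pooled mice, and reads were processed with Cell Ranger 3.0.2 against mm10, per the submitters' processing notes; the rule by which cells were chosen is not given in the sources used here. The deposited values are raw UMI counts per gene and cell, in a table of cells for both tissues and in unfiltered matrices, which agreed in all values (0 differed).

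Cells were those of the deposited table. Levels are summed UMIs per 1000000 UMIs (CPM) with exact Poisson intervals, shares have Clopper-Pearson intervals and ratios exact conditional binomial intervals, all at 95%. A marker was positive at 1 UMI. The free RNA profile came from barcodes holding 10 to 50 UMIs, scaled by Igkc, Igha and Jchain in the cells. Genes were named if at least 2-fold higher or lower in both libraries with at least 20 UMIs in each, mitochondrial, ribosomal, antibody and predicted genes left out, up to 8 per direction, ranked by the interval bound nearest to 1; where a library had under 20 cells in a group, the other was used alone. The 5 genes most like each member were ranked by the lower r of the 2 libraries. The interval and ratio code was tested on simulated Poisson counts. These lack the spread between cells seen here, so the test does not show how well the intervals cover in these data. The genes, markers and lists were chosen with earlier results of these data known. Annotation was GENCODE vM21, promoter sequence RefSeq (GRCm38.p6). Doublets were kept; Scrublet (scanpy 1.11.5) called 0 and 1 cells by itself, so an alternative left out its 241 and 456 top-scoring cells. Other alternatives were cells with at least 1000 UMIs and at most 10% mitochondrial UMIs, all barcodes with at least 1000 UMIs, free RNA subtracted, equal weight per cell, thinning to 1000 UMIs (0 cells were shallower), scaling without mitochondrial and ribosomal UMIs, shared barcodes left out, and positivity at 2 UMIs. One gene is not reported here and was left out of the lists, cell gates and motifs.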

Additional observations from a re-analysis of the deposited data

How the results depend on the processing

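With 1 pool of mice per tissue, differences between tissues could come from the pools, and intervals cover counting error only; leaving out a replicate was not possible. No paired analysis was possible because each group had 1 sample. The first comparisons were those of tissues, of Il22 and Il17f by Ccr6, of Il17a by Trdc, and co-detection of Il17f with Il17a or Il22. In them these values moved beyond their counting interval, as log2 ratios unless stated. Il22 in the small intestine over the colon was 1.15, and 1.20 with free RNA subtracted, 1.42 with equal weight per cell, 1.41 thinned to 1000 UMIs, 0.99 scaled without mitochondrial and ribosomal UMIs, which ends its 2-fold call, and 1.11 in cells with 0 Cd3e UMIs. Il17f was 1.20, and 1.60 with equal weight, 1.58 thinned and 1.04 without mitochondrial and ribosomal UMIs. Il17a was 0.35, and 2.35 in cells with 0 Cd3e UMIs. For Ccr6-positive over Ccr6-negative cells of the small intestine, Il22 was 0.99, and 1.05 with free RNA subtracted, 0.86 with equal weight, 0.71 thinned, 0.93 without mitochondrial and ribosomal UMIs, 0.67 with positivity at 2 UMIs and 0.92 with 0 Cd3e UMIs, and Il17f was 1.91, and 1.66 thinned and 1.45 at 2 UMIs. In the colon Il22 was 2.24, and 2.46 without doublets, 2.21 over all barcodes with at least 1000 UMIs and also without the highest cell, 2.41 with free RNA subtracted, 2.63 with equal weight, 2.57 thinned, 2.15 without mitochondrial and ribosomal UMIs and 2.05 at 2 UMIs. Il17f there was 2.64, and 2.90 without doublets, 2.94 with equal weight and 3.03 at 2 UMIs. For Trdc-positive over Trdc-negative cells, Il17a in the small intestine was 1.73 and turned to -0.57 in cells with 0 Cd3e UMIs, with an interval that includes 0. In the colon it was 3.22, and 3.84 thinned and 1.86 with 0 Cd3e UMIs. Co-detection over the product was 5.01 for Il17a with Il17f in the small intestine, 8.19 thinned and 8.74 at 2 UMIs, and for Il22 with Il17f 1.16, 1.38 thinned and 1.44 at 2 UMIs there, and 2.30, 3.37 thinned and 4.61 at 2 UMIs in the colon. The other 87 recomputed values of these comparisons stayed within counting error. Among the remaining marker comparisons and the co-detection of Il22 with Il17a, 61 recomputed values moved and 149 did not. None changed direction where the main interval excluded no difference, and changes elsewhere were not counted. The settings without the highest cell and with 0 Cd3e UMIs were chosen after seeing the data. Causes of these shifts were not tested.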
